A study of Mus musculus with 6 samples.

Results

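The leukotriene pathway was read in T-cell acute lymphoblastic leukemia (T-ALL) of the mouse, a cancer of T-cell precursors, through 8 genes: Alox5ap, Alox5, Lta4h, Ltc4s, Mgst2, Pla2g4a, Ltb4r1 and Cysltr1. Alox5ap was chosen by its lower measured intensity after Hes1 deletion on these same arrays, so its change is given as a description without a test. The 7 other genes were chosen for their place in the pathway. Together the 8 genes had 11 probes, out of 45281 probes and 19057 named genes on the array.

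Leukotrienes are lipid signals made from arachidonic acid. Cytosolic phospholipase A2 frees the fatty acid from membranes, 5-lipoxygenase oxidises it with the help of a membrane protein called FLAP, and the product is turned either into leukotriene B4 or into the cysteinyl leukotrienes, which act on separate receptors. The complete pathway is best known in neutrophils, macrophages, mast cells and other myeloid cells. T cells carry some of its receptors and answer leukotrienes made by other cells.

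The leukemias came from lineage-depleted mouse bone marrow carrying floxed Hes1 alleles (Hes1flox/flox) and a tamoxifen-activated Cre expressed from Rosa26 (Rosa26 Cre-ERT2). The marrow was transduced with ΔE-NOTCH1, an activated NOTCH1, and grown in lethally irradiated NRG immunodeficient mice. In the KO group, 3 samples received 4-hydroxy-tamoxifen for 36 hours, which deletes Hes1, and in the WT group 3 samples of the same genotype received ethanol for 36 hours. Both groups therefore carry ΔE-NOTCH1, the floxed alleles and Cre-ERT2, and the drug was given to KO samples only, so that loss of Hes1, the drug and Cre activity cannot be told apart. The labels call the replicates biological without tying them to separate leukemias, mice or cultures, and they describe drug treatment both in culture and in secondary recipients. A p-value here reflects how much these samples vary, and some of that variation may be technical.

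Total RNA was hybridised to Illumina bead arrays, for which each probe has a deposited linear intensity and a detection p-value. A probe is called detected here when its detection p is under 0.05. Between 16232 and 16685 probes were detected on the KO arrays and between 15807 and 16372 on the WT arrays. KO replicate 1 was the dimmest array, with a mean intensity of 520, against 630.5 and 687 on the other KO arrays and 703 to 713 on the WT arrays. The Hes1 probe was detected on 0 of 3 KO arrays and 3 of 3 WT arrays and was at least 53.5-fold lower in KO, the bound set by the lowest detected signal. Among the T-lineage markers, 11 of 15 with a probe were detected on at least 3 arrays, including Cd3d, Cd3e, Cd3g, Ptcra, Rag1 and Dntt, while Cd5, Cd8a and Rag2 were detected on none. With 3 arrays a group, the number of arrays sets how precise any value can be.

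Alox5ap encodes FLAP, the 5-lipoxygenase-activating protein, which presents arachidonic acid to the enzyme. The gene lies on chromosome 5, at 149265004 to 149288153 in the GRCm38.p6 RefSeq annotation, and both of its probes are annotated to the RefSeq transcript NM_009663. Both probes were detected on all 6 arrays, and after normalisation both were lower in KO by a similar amount.

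Probe ILMN_2863837 had intensities of 638, 853 and 877 on KO replicates 1, 2 and 3, against 2265, 2099 and 2314 on WT replicates 1, 2 and 3. Probe ILMN_1215791 had 604, 946.5 and 855 on the KO arrays, against 2168, 2101 and 2276 on the WT arrays. On both probes every KO array lay below every WT array, and the dimmest value came from KO replicate 1. Among all 11241 features tested, 16.2% had KO and WT arrays that did not overlap, in either direction.

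After background correction and quantile normalisation, the normalised log2 intensity of ILMN_2863837 averaged 9.50 ± 0.10 in KO and 10.91 ± 0.08 in WT (SD, n = 3 each). The difference, KO minus WT, was -1.41, or 37.7% of the WT level. ILMN_1215791 averaged 9.52 ± 0.24 in KO and 10.88 ± 0.07 in WT (SD, n = 3 each), a difference of -1.36 and 38.9% of the WT level. The KO arrays were more spread on ILMN_1215791 because KO replicate 2 stood at 9.79, above 9.35 for KO replicate 1 and 9.41 for KO replicate 3. On ILMN_2863837 the KO arrays stood at 9.44, 9.62 and 9.45, with KO replicate 2 again the highest. KO replicate 1, clearly the dimmest by deposited intensity, thus stood close to KO replicate 3 once the arrays were put on one scale. Without KO replicate 1 the difference on ILMN_2863837 was -1.28.

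**Figure D1:**
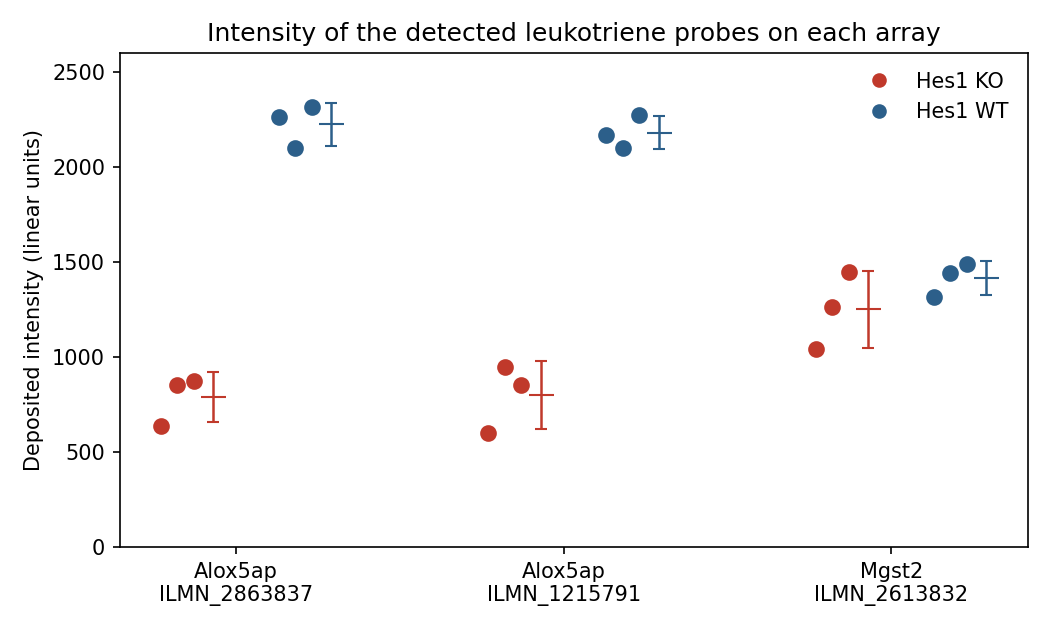
Deposited intensity, in linear units, of the 2 Alox5ap probes and the Mgst2 probe, with KO arrays in red to the left of WT arrays in blue. Each point is 1 array, and the crossbar and whiskers give the mean and SD of 3 arrays. The KO arrays lie between 604 and 946.5 on the Alox5ap probes and the WT arrays between 2099 and 2314, whereas the groups overlap on Mgst2.

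Neither Pla2g4a nor Alox5, the member genes for enzymes that act upstream of and together with FLAP, was detected. Pla2g4a, the cytosolic phospholipase A2 that releases arachidonic acid, had intensities of 119.5, 138 and 141 on the KO arrays and 143.5, 142 and 136 on the WT arrays. Its detection p ran from 0.585 to 0.810 in KO and from 0.318 to 0.813 in WT. These intensities lie near the array medians, which were 134 to 153.5 over all 6 arrays.

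Alox5 encodes 5-lipoxygenase, the enzyme that FLAP serves, and 3 probes of the transcript NM_009662 measured it. None of its 18 values was detected. ILMN_1221016 had intensities of 123, 142 and 140 in KO and 138, 142 and 144 in WT, and ILMN_2607112 had 119, 134 and 134 in KO and 130, 139 and 133 in WT. ILMN_2928453 had 130, 136.5 and 145 in KO and 127, 141 and 148 in WT. The lowest detection p of Alox5 was 0.306 in KO and 0.357 in WT, both on ILMN_2928453. No fold is given for Alox5 or Pla2g4a, since both groups were below the detection threshold.

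Downstream of 5-lipoxygenase the pathway divides. Lta4h encodes the hydrolase that makes leukotriene B4. Its single probe, ILMN_1237180, had intensities of 139, 147 and 160 in KO and 143, 154.5 and 153.5 in WT, with detection p of 0.0930 to 0.265 in KO and 0.151 to 0.329 in WT. This probe is annotated to the sequence AK005161, which is not among the RefSeq transcripts listed for Lta4h, so the result speaks for that sequence and not for every Lta4h transcript. The probes of the other 7 genes are all annotated to RefSeq transcripts of their gene.

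Ltc4s and Mgst2 both encode membrane enzymes that can join glutathione to leukotriene A4, the step that starts the cysteinyl leukotrienes. Ltc4s, the dedicated synthase, had intensities of 138, 146 and 159 in KO and 141, 141 and 169 in WT. It was detected on 1 array, WT replicate 3, with a detection p of 0.0492, at the edge of the threshold. This was the only detected value among 48 for the 8 probes of the 6 undetected genes, the next lowest being 0.0598 for Cysltr1 on WT replicate 1.

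Mgst2, microsomal glutathione S-transferase 2, was the other gene of the 8 with a signal well above background. Its intensity was 1044, 1265 and 1449 on the KO arrays, against 1315, 1445 and 1490 on the WT arrays, and it was detected on all 6. The groups overlapped. Its normalised log2 intensity averaged 10.27 ± 0.01 in KO and 10.22 ± 0.12 in WT (SD, n = 3 each). The fitted difference was 0.06 ± 0.11 (SE) with an adjusted p of 0.889 in limma, and its 95% interval ran from -0.20 to 0.31. The interval leaves out a change as large as that measured for Alox5ap, but a p that misses the threshold does not show that Mgst2 was equal in the groups.

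Set beside Mgst2 on the same array, the chosen values of Alox5ap can be given without any scaling between arrays. The log2 deposited intensity of ILMN_2863837 minus that of Mgst2 averaged -0.67 ± 0.09 in KO and 0.65 ± 0.12 in WT (SD, n = 3 each), so the gap between these probes differed by -1.32. This restates, on another scale, the Alox5ap values by which the gene was chosen, and it gives no order of the levels of the 2 genes, since probes of different sequence cannot give one.

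The receptors were not detected either. Ltb4r1, which encodes the high-affinity receptor for leukotriene B4, had intensities of 129, 156 and 158 in KO and 150, 152 and 147 in WT, with detection p from 0.107 to 0.343 in KO and from 0.171 to 0.400 in WT. Cysltr1, the cysteinyl leukotriene receptor 1, had 135.5, 142 and 143 in KO and 163, 136.5 and 145.5 in WT, with detection p from 0.160 to 0.564 in KO and from 0.0598 to 0.684 in WT. For both receptors the KO and WT arrays overlapped.

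In all, 2 of the 8 genes, or 25%, had a probe detected on at least 3 arrays, while 46.4% of all named genes did. The count was also 2 with detection required on all 6 arrays or at a detection p under 0.01, and 3 when 1 detected array was enough, through Ltc4s. Alox5ap was chosen on these arrays, so its detection is not independent of that choice. Of the genes chosen by role, only Mgst2 was detected on at least 3 arrays. Undetected means below the limit of these arrays and probes, not that the transcript was missing.

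**Figure D2:**
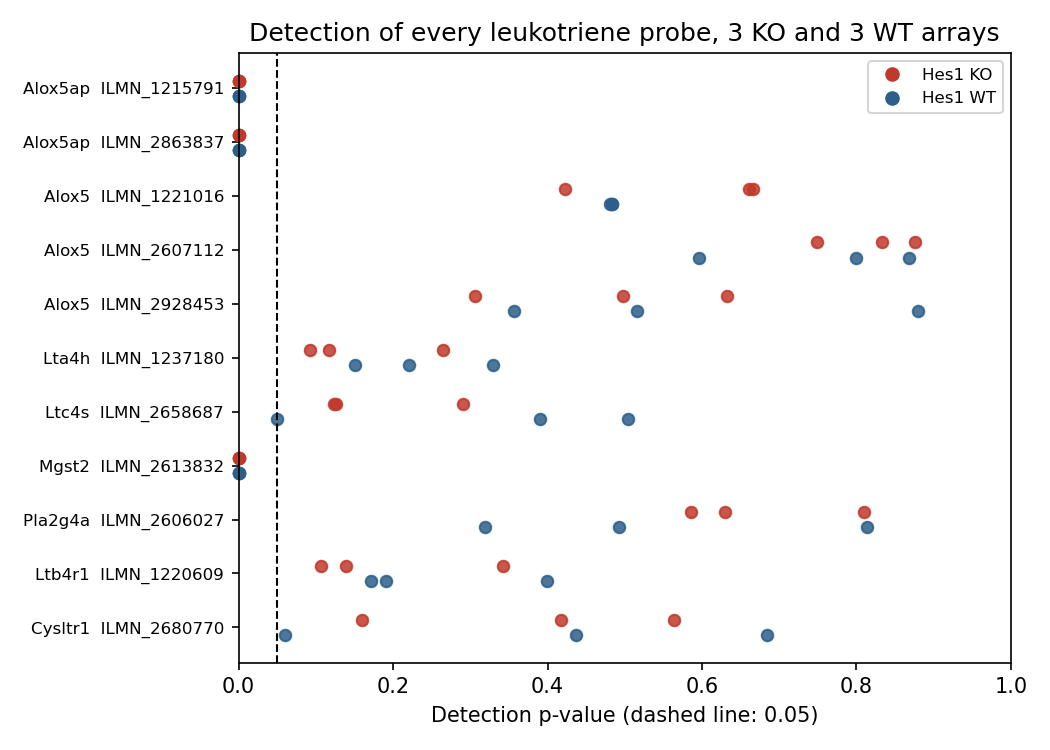
Detection p-value of all 11 probes of the 8 leukotriene genes, 1 point per array, with KO in red above WT in blue and the threshold of 0.05 as a dashed line. The probes of Alox5ap and Mgst2 sit at 0 on all 6 arrays, and 47 of the other 48 points lie to the right of the line.

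Alox5ap and Mgst2 belong to the MAPEG family, small membrane proteins of eicosanoid and glutathione metabolism, together with Ltc4s, Mgst1, Mgst3 and Ptges. The remaining members were at or near background. Mgst1, a microsomal glutathione transferase, was detected on no array by either probe (0 of 6). Mgst3, a related transferase and peroxidase, was detected on 0 KO arrays and 2 WT arrays by ILMN_2615035, with intensities of 135, 158 and 161 in KO and 173, 163 and 185 in WT. Its other probe, ILMN_1238479, was detected on none and had 125, 139 and 144 in KO and 160, 153 and 168 in WT. These intensities are near background and not scaled between arrays, and Mgst3 did not meet the filter for testing. Ptges, the microsomal prostaglandin E synthase, was detected on 0 KO arrays and 1 WT array.

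Beyond these genes, a list of 67 genes of arachidonate and eicosanoid metabolism was read by role. Of these, 59 had a probe here, 18 were detected on at least 3 arrays and entered the test, 7 were detected on 1 or 2 arrays, and 34 on none. Here and for the markers, the arrays on which an untested gene was detected were counted on its probe of lowest mean detection p. None of the 18 passed an adjusted p of 0.05 in limma (0), where 0.0623% of the 11241 features tested passed in either direction, and 2 had an unadjusted p under 0.05, where 9.27% of all features did. The list had 9 genes with lower and 9 with higher values in KO and a median change of -0.0027, against 0.0026 for all features tested. The KO and WT arrays did not overlap in 3 of the 18, close to the share of 16.2% among all features.

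Among 15 genes of arachidonate release and reacylation with a probe, 7 were tested. Pla2g12a, a secreted phospholipase A2, had normalised log2 intensities of 11.06, 11.41 and 11.21 in KO and 11.55, 11.60 and 11.50 in WT. Its change was -0.32 ± 0.12 (SE), not past the test (adjusted p 0.478 in limma), and another of its probes gave -0.60. All 3 KO arrays were below all 3 WT arrays. Faah, the hydrolase that breaks down anandamide to arachidonic acid, measured 0.25 ± 0.12 (SE, log2 change, adjusted p 0.586 in limma), while its other detected probes ranged from -0.07 to 0.17. Pla2g4b, a relative of Pla2g4a, measured -0.14 ± 0.11 (SE, log2 change), while its other probes gave 0.02 and 0.04. Acsl4, which activates arachidonic acid for reincorporation into lipids, measured -0.15 ± 0.17 (SE, log2 change), with its other probes between 0.12 and 0.49. The probes of Pla2g4b and of Acsl4 thus disagreed in sign.

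The other lipoxygenases were all undetected: Alox12, Alox12b, Alox12e, Alox15, Alox8 and Aloxe3 were detected on 0 arrays each. Alox5ap RNA was therefore measured where none of the 7 lipoxygenase genes read had a probe that met the filter. The further receptors Cysltr2, Oxgr1, Gpr17, Fpr2 and Cmklr1 were detected on 0 arrays as well.

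Of 10 genes of leukotriene export and breakdown with a probe, 5 were tested and 1 had an unadjusted p under 0.05, where 9.27% of all features did. That gene was Abcc4, an efflux pump for eicosanoids, with 7.58, 7.20 and 7.30 in KO and 7.05, 7.17 and 6.83 in WT on the normalised log2 scale. Its KO arrays lay above its WT arrays by a narrow margin. Its change was 0.34 ± 0.15 (SE), with an adjusted p of 0.535 in limma. Ggt7, of the gamma-glutamyltransferase family, measured 0.25 ± 0.18 (SE, log2 change) and its relative Ggt6 -0.38 ± 0.25, neither past the test. Ggt6 was near background, detected on 2 KO and 2 WT arrays, and its change was -0.11 without background correction. Abcc1, the exporter of leukotriene C4, was detected on 0 arrays by its probe of lowest mean detection p, and none of its 3 probes met the filter.

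The prostanoid arm, which shares the arachidonate supply, was mostly undetected as well. Ptgs2, the inducible cyclooxygenase, was detected on 0 arrays. Of 9 synthesis genes with a probe, the tested ones were Ptges2 (-0.26 ± 0.30, SE, log2 change) and Ptges3 (0.00 ± 0.22), and of 8 receptors only Tbxa2r, the thromboxane receptor, was tested (-0.11 ± 0.12). The genes for 5-lipoxygenase partners were detected on all 6 arrays: Cotl1, a coactosin-like protein that binds 5-lipoxygenase, measured 0.05 ± 0.11 (SE, log2 change), and the kinase genes Mapkapk2 and Mapk14 measured 0.06 ± 0.11 and 0.02 ± 0.15. Adjusted p-values in limma for these 6 genes ran from 0.782 to 0.995.

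**Figure D3:**
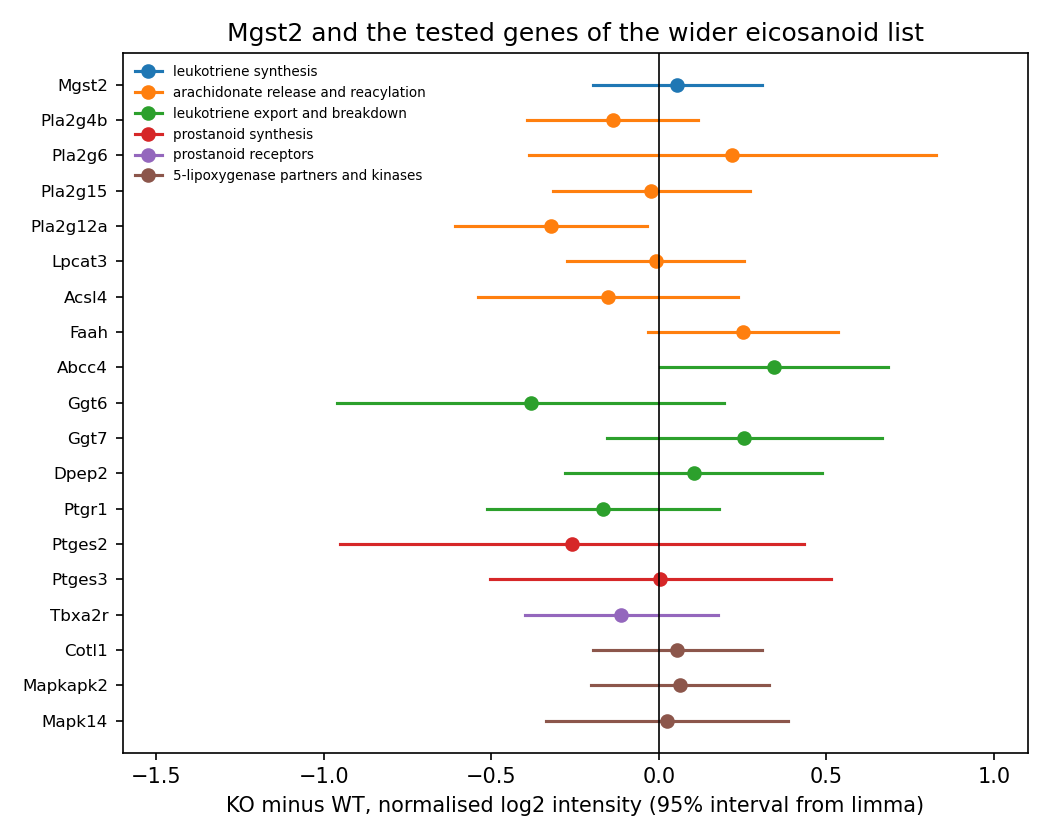
Change in normalised log2 intensity, KO minus WT, for Mgst2 and the 18 tested genes of the wider eicosanoid list, coloured by role. Points are fitted values and lines 95% intervals from limma, not adjusted for the number of genes. The fitted values run from -0.38 for Ggt6, which was near background and detected on 2 KO and 2 WT arrays, to 0.34 for Abcc4.

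Because FLAP is best known from myeloid cells, markers of other cell types were read beside it. In bulk RNA, fewer cells of a type and less RNA per cell cannot be told apart. Of 21 myeloid markers with a probe, 14 were detected on 0 arrays, among them Itgam, Lyz1, Lyz2, Mpo, S100a8, S100a9, Tyrobp and Spi1, a master transcription factor of the lineage. Only Fcer1g, an adaptor that lymphocytes can also express, was detected on at least 3 arrays, and it measured 0.12 on the log2 scale.

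The summed background-corrected intensity of the 21 myeloid markers was 5566 to 5689 in KO and 4871 to 5436 in WT. Without Fcer1g, which made up most of it, the sum was 239 to 281 in KO and 208 to 220 in WT. Of 60 values per group for these 20 markers, 8 were detected in KO and 1 in WT. Of all probes, 35.8% to 36.8% were detected on KO arrays and 34.9% to 36.2% on WT arrays. None of the 20 markers was detected on all 3 arrays of either group (0), so most values in these sums were below detection. Whether the groups differ in this count was not tested.

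Of 8 mast cell and basophil markers, Cpa3, Kit and Hdc were tested, at 0.00, 0.29 and 0.02 on the log2 scale, while Ms4a2, Tpsb2, Mcpt4 and Gata2 were detected on 0 arrays. Another Kit probe gave -0.22, opposite in sign, and Cpa3 was detected on only 3 arrays, near background. The summed intensity of the 8 markers, most of it from Kit, was 574 to 810 in KO and 561 to 646 in WT, with the groups overlapping. Of 4 B-cell markers with a probe 2 were detected on 0 arrays, as were 3 of 4 NK-cell, 3 of 5 dendritic-cell, 4 of 5 platelet and 2 of 3 erythroid markers. The B-cell marker Ebf1 was detected on 3 KO arrays and 0 WT arrays, so it met the filter through KO alone. The erythroid marker Klf1 and the platelet marker Gp9 were tested, at -0.53 ± 0.39 and 0.22 ± 0.14 (SE, log2 change). No dendritic-cell marker was tested, and their summed intensity, near background, was 69 to 78 in KO and 48 to 60 in WT. The sums of the B-cell, NK-cell, platelet and erythroid markers overlapped between the groups. Of 4 markers of stroma and endothelium, Pecam1 was tested and measured 0.53. The summed intensity of these markers was 863 to 1200 in KO and 615 to 793 in WT. Pecam1 made up most of it, since Col1a1, Col1a2 and Cdh5 were detected on 0, 1 and 1 arrays. The sum thus restates the Pecam1 values. No marker of any list passed the test (0 of 19 in limma), where 0.0623% of all features did. The T-lineage marker Cd2 (0.52 on the log2 scale) and Pecam1 were the 2 with an unadjusted p under 0.05, where 9.27% of all features had one. The part of other cells in the Alox5ap difference was not tested beyond these values.

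The named genes whose normalised log2 values over the 6 arrays were most like those of Alox5ap were ranked by Pearson correlation among 8835 others. They were Sertad4 (r = 0.996, Spearman's rho 0.829), Hes1 (r = 0.990, rho 0.600), Asns (r = 0.986, rho 0.943), Olfr1443 (r = 0.982, rho 0.657) and Mif (r = 0.981, rho 0.771). The 6 points are the same 6 arrays in 2 groups, so r reflects above all the step between KO and WT by which Alox5ap was chosen, and 142 genes had r above 0.9. The ranking is a description only. The steps differ in size: the log2 change was -1.04 for Sertad4, a SERTA domain gene, -0.62 for Asns, asparagine synthetase, and -0.26 for Mif, macrophage migration inhibitory factor. Hes1 and Olfr1443, annotated as an olfactory receptor, were detected on 0 KO and 3 WT arrays, so they met the filter through WT alone and their r rests on KO values at background. The other Alox5ap probe correlated with ILMN_2863837 at r = 0.993 over the same arrays.

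The direction and size of the Alox5ap difference were followed through 18 other ways of processing or subsetting the arrays. Changes of filter, each probe alone, blocking by replicate number and a trended robust prior could not alter this difference of means, which stayed at -1.41. Alox5ap was lower in KO in all 18, smallest with the authors' own values (-1.27) and largest with median scaling (-1.61). With every KO array below every WT array, leaving out an array could hardly reverse the sign. The authors' values match those without background correction, so they are not a separate check. Under median scaling the median of all features moved to -0.17. Mgst2 stayed near that median throughout, from -0.02 to 0.10 away from it.

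**Figure D4:**
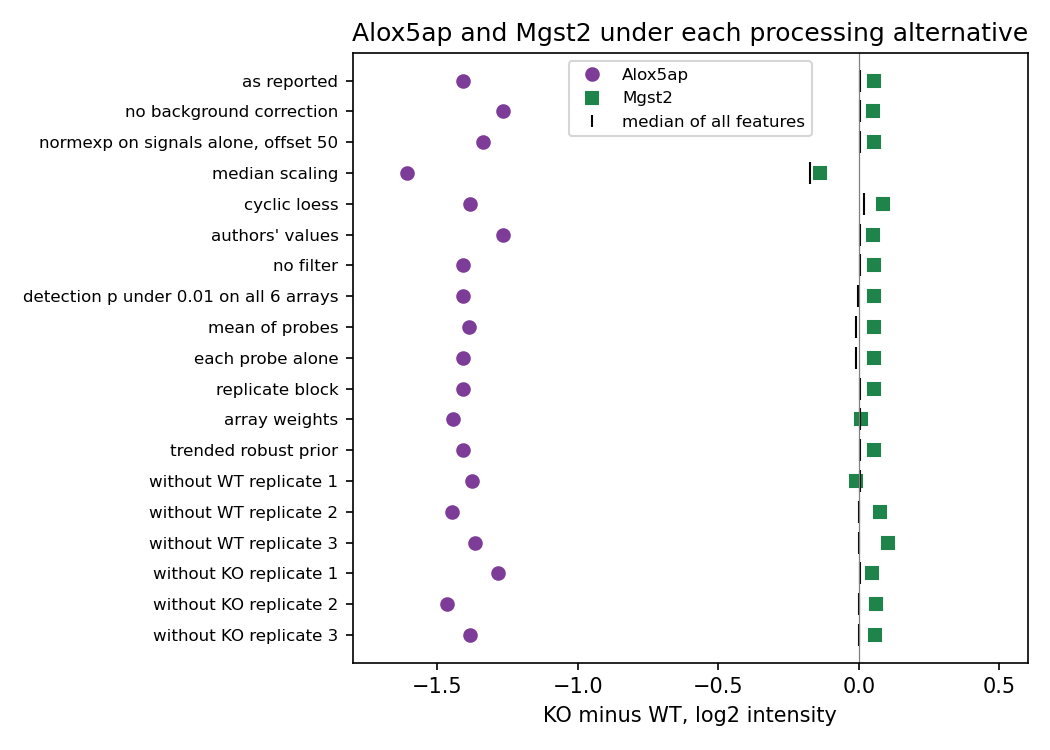
Log2 change, KO minus WT, of Alox5ap (circles) and Mgst2 (squares) as reported and under 18 processing alternatives, with the median of all tested features as a tick. Alox5ap stays between -1.61 and -1.27, and Mgst2 between -0.14 and 0.10.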

How the data were processed

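Per the file headers, the deposited series table gives intensity (linear, not background-subtracted) and detection p-values for 6 arrays. Amplification started from 10 ng of RNA, per the labels' protocols, a step that can distort relative signals. Scanner and summary software: not given in the sources used here. The authors' processed log2 values, deposited separately, equalled quantile-normalised log2 intensities within 5.0e-05 and had a median of 7.20 on every array.

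Intensities were processed with neqc in limma 3.58.1 (R 4.3.3): background from detection p-values, offset 16, quantile normalisation and log2. Quantile normalisation hides a shift of most genes. Platform symbols named 34885 probes, while 18 had several symbols and 10378 none here. All 8 leukotriene genes matched the RefSeq table of GRCm38.p6. Probes detected at p under 0.05 on at least 3 arrays were kept (16287), with the brightest probe per gene, giving 11241 features. The comparison of KO with WT used limma (lmFit, eBayes) without covariates, and Benjamini-Hochberg adjustment over all features. Marker sums use the probe of lowest mean detection p per gene, on the linear scale with the offset removed.

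Members, lists and tests were chosen with earlier results of these data known. Named genes were every member probe, up to 3 genes of smallest p per role, Hes1, marker genes, and the 5 genes most correlated with Alox5ap. Further undetected genes and Acsl4, Mgst3 and the marker examples were named after their values were seen. Same-numbered KO and WT samples were not paired by the labels, and their deviations correlated at -0.10, -0.27 and 0.15. Normalisation, the detection filter and the limma fit were run on simulated data with independent probes. The choice of probe per gene, the marker sums and the correlation ranking were not.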

Additional observations from a re-analysis of the deposited data

How the results depend on the processing

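The Alox5ap difference was below 0 in all 18 alternatives, of which the filter changes, each probe alone, the replicate block and the trended robust prior could not alter it. Leaving out an array could hardly reverse its sign, and the authors' values repeat those without background correction. The count of 18 is therefore not a count of separate checks. The difference was -1.27 without background correction, -1.27 with the authors' values and -1.61 with median scaling. Median scaling moved the median of all features to -0.17, so that Alox5ap lay -1.43 from it. Leaving out 1 array gave -1.47 to -1.28, with -1.28 without KO replicate 1. Mgst2 was past the test in none of its 18 alternatives (adjusted p 0.675 to 0.983) and changed sign in 2, to -0.14 with median scaling and to -0.01 without WT replicate 1. No gene of the wider list passed in any alternative (0), those without a filter included, and of the 6 undetected leukotriene genes, which could be fitted only without a filter, 0 passed there.

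The number of features past the test moved most. It was 7 as reported, 36 without background correction, 36 with the authors' values, 30 with a normexp fit on signals alone, 23 with median scaling, 17 with detection p under 0.01 on all 6 arrays, 119 with array weights, 47 with a trended robust prior, 23 at an adjusted p under 0.1 and 2 with the replicate block. Leaving out 1 array gave 2 to 8: the count was 8 when KO replicate 1 was left out, 3 for KO replicate 2, and 2 for KO replicate 3 or any single WT replicate. Under median scaling 6 were higher and 17 lower, against 4 higher and 3 lower as reported. The replicate block changed no call among the leukotriene or wider genes. The cause of these moves was not tested. Intensities near the array medians limit every statement on the undetected genes.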
